A study of Rattus norvegicus with 4 samples.

Results

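T cells that carried UMIs of regulatory T cell genes were 152 of the 32801 filtered barcodes in day 4 skin of a wound healing model in rats. A UMI is 1 captured RNA molecule. They are called members here, and they were chosen by UMI counts in 4 droplet libraries. A barcode had to hold at least 1000 UMIs and 250 genes, with at most 20% of UMIs in mitochondrial genes. Barcodes with 0.5% or more of UMIs in Krt5 and Krt14, with 1% or more in the collagen genes and Dcn, with 0.5% or more in G0s2, Il1r2, S100a8 and S100a9, or with 3 or more C1q UMIs were left out. Of the 12575 barcodes that remained, 493 held at least 2 UMIs of Cd3e, Cd3d and Cd3g together and are called T cells. Members were the T cells with at least 2 UMIs of Foxp3, Ikzf2 and Ctla4 together, and the other 341 T cells were the comparison class. Col1a2, which the rule also names, is absent from the gene list used here, so the collagen step rested on Col1a1, Col3a1 and Dcn.

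The injected group was 2 libraries from wounds that received purified migrasomes, the vesicles that migrating cells leave on their retraction fibres. The uninjected group was 2 libraries from wounds that received nothing, so the act of injecting and the migrasomes themselves cannot be told apart. All 4 libraries were whole digested rat skin with no sort for T cells, and the labels give neither strain, age nor sex. The labels do not say that replicates came from separate animals, so p-values measure spread over libraries, which may be technical. Members and other T cells were compared within each library, so there the spread is that of the difference.

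Regulatory T cells restrain other immune cells. Foxp3 is the transcription factor that defines most of them, Ikzf2 encodes Helios, a transcription factor of many Foxp3-positive cells, and Ctla4 is an inhibitory receptor that competes with Cd28 for its ligands. Ikzf2 and Ctla4 are not limited to regulatory T cells, since activated T cells also make Ctla4 and some cytotoxic T cells carry Helios. In mouse skin, regulatory T cells are known to limit inflammation after wounding.

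The libraries held between 75823418 and 105605297 UMIs. Filtered barcodes numbered 9850 in injected 1, 6143 in injected 2, 7818 in uninjected 1 and 8990 in uninjected 2, and pairs of libraries shared between 13 and 29 of these barcodes. Members held a median of 5540 and 6372 UMIs in the injected libraries and 4250 and 4924 in the uninjected ones. Uninjected 1 stood apart in 2 ways. It gave only 8 members, with 45060 UMIs in all, and ribosomal protein genes took 16.5% of them, against 8.89% in injected 1, 9.24% in injected 2 and 9.08% in uninjected 2. Its other T cells had the same feature, at 15.7%.

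Members made up a larger share of T cells in both injected libraries than in either uninjected library. They were 69 of 204 T cells in injected 1 (33.8%, Wilson 95% interval 27.7 to 40.6%) and 37 of 79 in injected 2 (46.8%, 36.2 to 57.7%). In the uninjected libraries they were 8 of 55 (14.5%, 7.56 to 26.2%) and 38 of 155 (24.5%, 18.4 to 31.9%). The 2 groups did not overlap, but the interval of injected 1 overlapped that of uninjected 2. The mean was 40.3 ± 9.19% in injected and 19.5 ± 7.07% in uninjected wounds (SD, n = 2 each), a difference of 20.8 percentage points. The two-sided exact permutation p over libraries was 0.333, the smallest that 2 libraries against 2 allow. Intervals here cover counting error only.

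Of all filtered barcodes, members were 0.701% and 0.602% in the injected libraries and 0.102% and 0.423% in the uninjected ones, with the same exact permutation p of 0.333. The gate needs 2 UMIs summed over the Cd3 genes and 2 summed over Foxp3, Ikzf2 and Ctla4, so depth bears on it. When each barcode was thinned to 1000 UMIs before the gate, 13 of 65, 3 of 19, 0 of 12 and 4 of 31 T cells passed in injected 1, injected 2, uninjected 1 and uninjected 2. The difference between groups was then 11.4 percentage points. At 0 of 12 cells this depth cannot separate absence from a low share in uninjected 1.

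**Figure D1:**
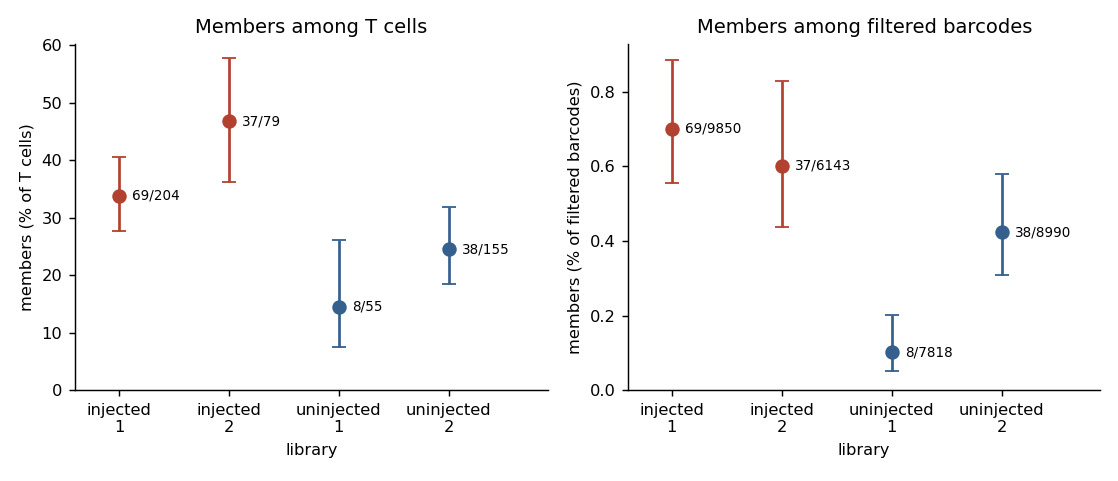
Members as a percentage of T cells (left) and of filtered barcodes (right) in each library, with cell counts beside the points. Bars are Wilson 95% intervals. Both injected libraries (33.8% and 46.8% of T cells) lie above both uninjected ones (14.5% and 24.5%), and uninjected 1 rests on 8 members.

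The 3 genes of the rule did not mark 1 set of cells. Ctla4 had a UMI in 126 members, Ikzf2 in 74 and Foxp3 in 35, and 18 members held all 3. By library, Foxp3 was found in 11 of 69 members of injected 1, 13 of 37 of injected 2, 0 of 8 of uninjected 1 and 11 of 38 of uninjected 2. The 0 of 8 cells in uninjected 1 allow a share of cells with a Foxp3 UMI of up to 37.5% (3 counts of 8), which does not limit how many cells express it. Foxp3 had a UMI in between 0.0976% and 0.213% of keratinocyte barcodes, which should lack it and were deeper (median 14632.5 to 19378 UMIs). Ikzf2 had one in 5.28 to 9.38% of keratinocyte barcodes, and Ctla4 in 0 to 0.18%. In members that held Ikzf2 the median was 4 UMIs and the highest 40, while Foxp3 had a median of 2 and a highest value of 10.

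These values split members into 35 with Foxp3, 50 with Ikzf2 and no Foxp3, and 67 with Ctla4 alone. At the edge of the rule, 37 members held exactly 2 UMIs of the 3 genes, and 4 of them had Foxp3. Just outside it, 57 other T cells held 1 UMI, which was Ctla4 in 39, Ikzf2 in 12 and Foxp3 in 6. The remaining 284 other T cells held none.

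Coreceptor genes divided the members further. Cd8a or Cd8b, the chains of the coreceptor of cytotoxic T cells, had a UMI in 41 members, and only 1 of these held Foxp3. They were 27 of 69 members in injected 1 (39.1%) and 6 of 37 in injected 2 (16.2%), against 1 of 8 in uninjected 1 (12.5%) and 7 of 38 in uninjected 2 (18.4%). Injected 1 was the high library, and the groups overlapped (exact permutation p = 0.667, two-sided). Cd4, the coreceptor of helper and most regulatory T cells, was rarely captured. It was found in 14 members, 9 of which held Foxp3, and by library in 7, 6, 0 and 1. Neither coreceptor was found in 98 members.

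**Figure D2:**
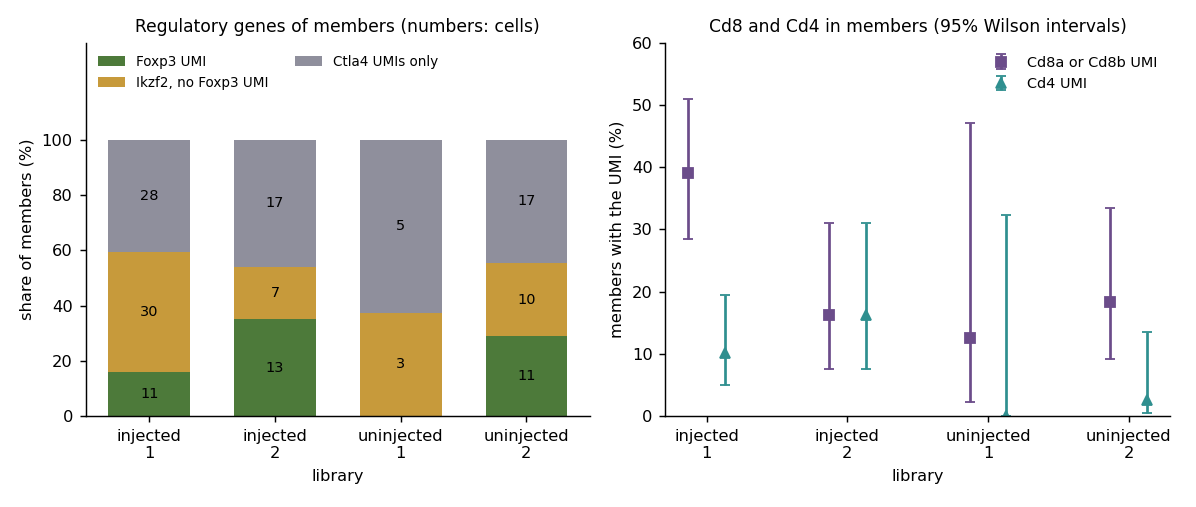
Left, members of each library split by the regulatory genes they held (percent of members, cell counts inside the bars). Right, percentage of members with a Cd8a or Cd8b UMI (squares) or a Cd4 UMI (triangles), with Wilson 95% intervals. Foxp3 cells are 11, 13, 0 and 11, and Cd8 cells are most frequent in injected 1 at 39.1%.

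The label was checked against the regulatory markers that the rule did not use, which leaves out Cd3e. Of these 8, Il2ra, Tnfrsf18, Tnfrsf4, Tigit, Icos, Ikzf4 and Lrrc32 were found in members and Gpr83 was at 0. Il2ra, the high-affinity interleukin 2 receptor chain that regulatory T cells use to capture interleukin 2, was found in 41, 28, 7 and 20 members of injected 1, injected 2, uninjected 1 and uninjected 2. Its level was 635 and 1390 CPM (UMIs of the gene per 1000000 UMIs summed over the members of a library) in the injected libraries, against 910 and 826 CPM in the uninjected ones. Tigit, an inhibitory receptor, was found in 15, 2, 1 and 3 members. Lrrc32, which holds latent TGF-beta on the cell surface, was found in 2, 5, 0 and 2, and Ikzf4 in 1 member. Detection in members alone does not set them apart, since Il2ra was also found in 134 of 341 other T cells. Since Foxp3 was seen in 23.0% of members, the cells are described by their rule and not as regulatory T cells.

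Il2ra, Tnfrsf9, Tnfrsf4, Gata3 and Itgb8 were found most often in the members with Foxp3. Il2ra was found in 31 of these 35 cells, against 28 of 50 with Ikzf2 and no Foxp3 and 37 of 67 with Ctla4 alone. The costimulatory receptor gene Tnfrsf9 was found in 27 of 35, against 20 of 50 and 11 of 67, and Tnfrsf4 (OX40) in 21 of 35, against 8 of 50 and 24 of 67. Gata3, a transcription factor shared by type 2 helper cells and tissue regulatory T cells, was found in 18, 11 and 16 of these cells. Itgb8, an integrin chain that activates TGF-beta, was found in 14, 3 and 2. Tnfrsf18 (29, 31 and 36 cells) and Il10 (5, 1 and 2) were also most frequent in members with Foxp3. Icos and Areg differed little between members with Foxp3 and members with Ctla4 alone. Tigit was most frequent in members with Ikzf2 and no Foxp3. Icos was found in 32 of 35, 32 of 50 and 61 of 67 cells, Areg, a growth factor of tissue repair, in 10, 12 and 18, and Tigit in 3, 12 and 6. Il1rl1, the interleukin 33 receptor, was found in 9, 5 and 7 cells, and in 2, 3 and 3 once every cell was thinned to 1000 UMIs.

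Cd8a, Nkg7, Klrd1 and Gzmk were found least often in the members with Foxp3. Cd8a was found in 1 of the 35 cells with Foxp3, 19 of 50 with Ikzf2 and no Foxp3, and 19 of 67 with Ctla4 alone. Nkg7, a protein of cytotoxic granules, was found in 1, 15 and 14 cells, Klrd1, a receptor of natural killer and CD8 T cells, in 1, 10 and 16, and the granule protease gene Gzmk in 1, 9 and 12. These counts describe cells pooled over libraries and were not tested. Cells with Foxp3 were also deeper, at a median of 6659 UMIs against 5236 and 5265. With every cell thinned to 1000 UMIs, Il2ra was found in 20 of 35, 12 of 50 and 22 of 67 cells, Tnfrsf9 in 22, 9 and 5, and Cd8a in 0, 7 and 9, in the same cell order.

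The other T cells, so called by the Cd3 step alone, were a mixture. Of the 341, 124 held a UMI of Tyrobp, an adaptor of myeloid and natural killer cells, or Cd79a, a chain of the B cell receptor. In these 124 cells Cd3g was found in 113, but Cd3e in only 22 and Lck in 13. Ptcra was found in 95, Flt3 in 81, Blnk in 107, Ighm in 106, Pld4 in 101 and Tcf4 in 101. In the remaining 217, Cd3e was found in 193 and Ptcra in 2. Only 16 members held Tyrobp or Cd79a, 7 of them with Ptcra. Each comparison with other T cells is therefore given for all cells and again for the 136 members and 217 other T cells without these UMIs, a split made after the data were seen. Without them, members were 44.4% and 47.6% of T cells in the injected libraries and 19.4% and 32.1% in the uninjected ones, a difference of 20.2 percentage points.

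**Figure D3:**
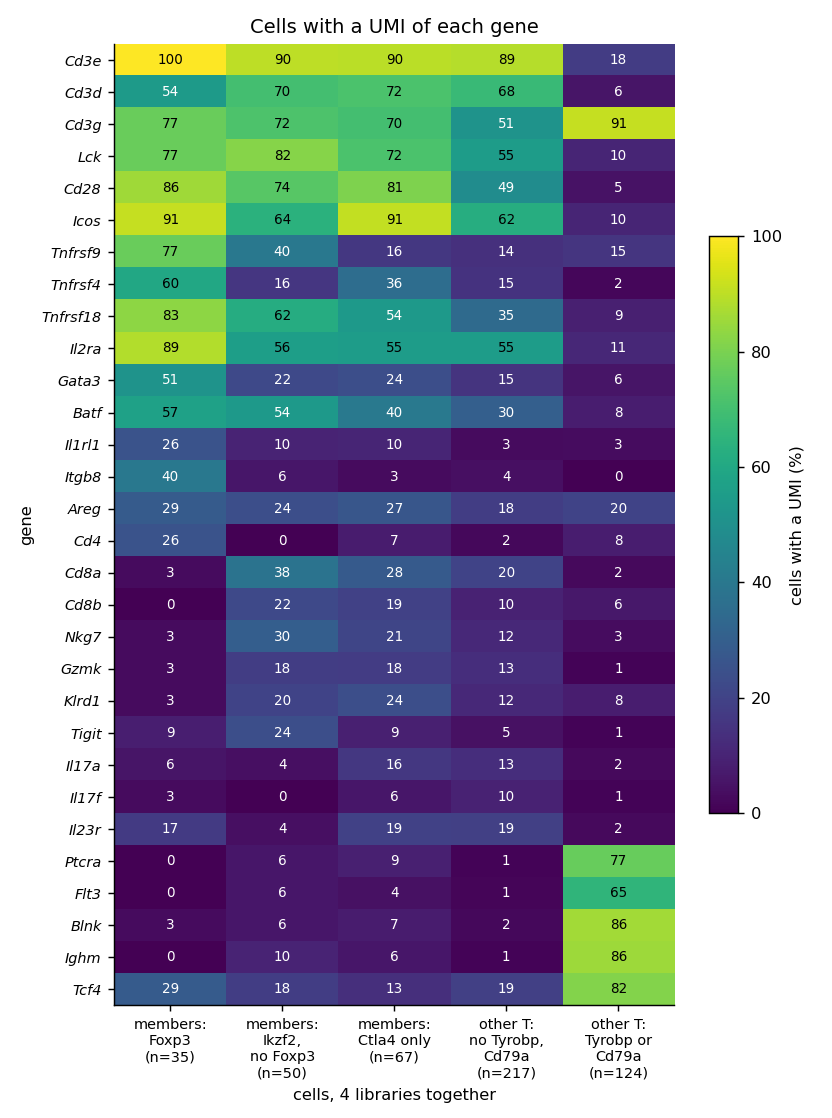
Percentage of cells with a UMI of each gene in the 3 kinds of members and the 2 kinds of other T cells, 4 libraries together (column sizes under the labels). Il2ra, Tnfrsf9, Tnfrsf4, Gata3 and Itgb8 are most frequent in members with Foxp3, Cd8a and Nkg7 in members without it, and Ptcra, Flt3, Blnk and Ighm in other T cells with Tyrobp or Cd79a.

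Il17a and Il17f were lower in members than in other T cells, and Tnfrsf9 and Stmn1 were higher, past the test both in all cells and without the Tyrobp or Cd79a cells. In all cells, edgeR's quasi-likelihood test on UMIs summed per library and class, with library as a block and Benjamini-Hochberg adjustment, called 452 of 5926 genes (7.63%) at an adjusted p under 0.05. Of these, 105 were higher in members (1.77%) and 347 lower (5.86%). Genes of the rule were left out. Leaving out injected 1 gave 94 genes and leaving out uninjected 2 gave 220. In cells without Tyrobp or Cd79a UMIs, 13 of 4789 genes (0.271%) passed, 7 higher (0.146%) and 6 lower (0.125%). Of these 13, 11 were also called in all cells, in the same direction. Of the 105 genes higher in all cells, 103 were still higher without those cells. Of the 347 lower, 158 could be tested and 117 were still lower.

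Il17a and Il17f, which encode cytokines that recruit neutrophils to skin, were lower in members under both settings. In cells without Tyrobp or Cd79a UMIs, Il17f stood at 0 and 36.7 CPM in members of the injected libraries and 0 and 4.81 CPM in members of the uninjected ones (0, 8, 0 and 1 UMIs). In other T cells it stood at 203 and 1310 CPM in the injected libraries and 440 and 123 CPM in the uninjected ones. The 2 classes did not overlap, and the log2 difference was -5.57 (SE 0.46, edgeR adjusted p = 0.000824). Il17a stood at 24.0 and 349 CPM in members of the injected libraries and 289 and 52.9 CPM in members of the uninjected ones. In other T cells it stood at 1620 and 4250 CPM, and at 857 and 384 CPM, in the same order. Every other T cell value exceeded every member value, with a log2 difference of -3.73 (SE 0.52, edgeR adjusted p = 0.021). Il17f passed the threshold with each library left out in turn, with an adjusted p of at most 0.0123. Il17a passed in 2 of the 4 such fits, with an adjusted p of up to 0.2.

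The difference rested on few cells. In all cells, Il17a had a UMI in a like share of both classes, 15 of 152 members (9.87%) and 31 of 341 other T cells (9.09%). Those cells held a median of 5 Il17a UMIs in members and 20 in other T cells. In all, 3 members against 27 other T cells held 10 or more UMIs of the 2 genes. Of the 15 members, 11 held Ctla4 alone, 2 held Ikzf2 without Foxp3 and 2 held Foxp3. Il23r, the receptor that sustains interleukin 17 production, was found in 21 members (13.8%) and 44 other T cells (12.9%). Only 3 of these 44 were among the 124 with Tyrobp or Cd79a, and members without those UMIs had it in 19 of 136 (14.0%).

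Il17a and Il17f are neighbours on rat chromosome 9, and their promoters are shown because both genes were lower together. The sequences are RefSeq's, on build GRCr8, from 250 bases before to 50 bases after the start of each gene, read along the gene's own strand. The motif searched was AGGTCA, a half-site that many nuclear receptors share, on both strands, and capitals mark a match. Il17a (chr9:30640594-30640893, plus strand) held 1 match, read as TGACCT on the strand shown, and Il17f (chr9:30697869-30698168, minus strand) held 0. The motif was present in 5415 of 33469 rat promoters of this length (16.2%), so a match describes the letters and no more.
Il17a: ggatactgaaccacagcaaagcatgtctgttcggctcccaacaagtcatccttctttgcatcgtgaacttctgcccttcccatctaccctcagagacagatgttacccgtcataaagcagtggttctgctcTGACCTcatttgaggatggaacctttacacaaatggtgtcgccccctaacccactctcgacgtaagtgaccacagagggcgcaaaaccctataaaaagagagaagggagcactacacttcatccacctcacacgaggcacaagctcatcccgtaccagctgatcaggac
Il17f: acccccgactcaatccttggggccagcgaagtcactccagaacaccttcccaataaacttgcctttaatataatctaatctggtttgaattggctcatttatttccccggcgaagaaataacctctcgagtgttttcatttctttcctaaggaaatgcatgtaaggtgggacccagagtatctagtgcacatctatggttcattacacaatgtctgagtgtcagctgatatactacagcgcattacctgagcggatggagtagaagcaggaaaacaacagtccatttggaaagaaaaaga

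In all cells, 11 of 11 tested genes of the costimulation and TNF receptor list were higher in members, with a median log2 difference of 0.93, beside -0.01 for all genes tested. Of these, 6 passed the test, beside 1.77% of all genes called higher: Cd27, Cd28, Icos, Tnfrsf4, Tnfrsf9 and Tnfrsf18. Icos and Cd28 lie beside Ctla4 on rat chromosome 9, and Tnfrsf4 lies beside Tnfrsf18. Their sum over the list was 4140 and 5890 CPM in members of the injected libraries and 4390 and 3750 CPM in members of the uninjected ones. In other T cells it was 1990 and 3260 CPM, and 2060 and 1640 CPM. Without Tyrobp or Cd79a cells, 7 of 11 were higher, the median was 0.18 beside -0.04 for all genes, and only Tnfrsf9 passed.

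Cd28, the main costimulatory receptor of T cells, had 633 and 660 CPM in members of the injected libraries and 1070 and 638 CPM in members of the uninjected ones. In other T cells it had 142 and 332 CPM, and 227 and 164 CPM. In all cells the log2 difference was 1.75 (SE 0.23, edgeR adjusted p = 0.00456), and without Tyrobp or Cd79a cells it was 0.85 (SE 0.22, adjusted p = 0.241).

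Tnfrsf9, which encodes the activation-induced receptor 4-1BB, held its difference. In cells without Tyrobp or Cd79a it had 213 and 738 CPM in members of the injected libraries and 952 and 481 CPM in members of the uninjected ones, from 98, 161, 33 and 100 UMIs. The values in other T cells were 55.4 and 112 CPM, and 22.0 and 132 CPM. The classes did not overlap, and the log2 difference was 2.57 (SE 0.40, edgeR adjusted p = 0.0307). It passed in 2 of the 4 fits that left out a library, with an adjusted p of up to 0.227. Tnfrsf18, which encodes GITR, was less specific in this tissue, with a UMI in 43.8 to 60.5% of keratinocyte barcodes.

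In all cells, 14 of 14 tested cell division genes were higher, with a median log2 difference of 1.44. Of them Mki67, Stmn1 and Hmgb2 passed, beside 1.77% of all genes called higher. Without Tyrobp or Cd79a cells, 10 of 10 were higher, with a median of 1.40, and only Stmn1 passed. Stmn1, which destabilises microtubules in dividing cells, then had 420 and 725 CPM in members of the injected libraries and 1040 and 414 CPM in members of the uninjected ones. Other T cells had 163 and 148 CPM, and 264 and 219 CPM, so the classes did not overlap (log2 difference 1.54, SE 0.26, edgeR adjusted p = 0.0464). It passed in 1 of the 4 fits that left out a library, with an adjusted p of up to 0.351. Mki67, a nuclear protein of cycling cells, was found in 22 of 152 members and 15 of 341 other T cells. The list's sum in members was 2350 and 2600 CPM in the injected libraries and 6210 and 1450 CPM in the uninjected ones, with the highest value in the library of 8 members.

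Tmsb4x, Pfn1, Capg, Upp1 and Slpi were the other genes higher in members without Tyrobp or Cd79a cells. Tmsb4x binds actin monomers and had a log2 difference of 0.71 (SE 0.09, edgeR adjusted p = 0.021), Pfn1 promotes actin assembly and had 0.86 (SE 0.13, adjusted p = 0.021), and Capg caps filaments and had 1.38 (SE 0.22, adjusted p = 0.0411). Each was higher in members in 4 of 4 libraries. With a library left out in turn, Tmsb4x and Pfn1 passed in 2 of 4 fits (adjusted p up to 0.123 and 0.205), and Capg and Upp1 in 1 of 4 (up to 0.353 and 0.277). Capg had 218 and 670 CPM in members of the injected libraries and 635 and 486 CPM in members of the uninjected ones, against 83.0, 219, 169 and 246 CPM in other T cells of the same libraries. Upp1, which breaks down uridine, had 107 and 349 CPM in members of the injected libraries and 375 and 303 CPM in members of the uninjected ones. Other T cells had 15.4, 76.9, 29.3 and 118 CPM, and the difference was 2.12 (SE 0.33, adjusted p = 0.0307).

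Slpi, a protease inhibitor of epithelia and myeloid cells, passed only without Tyrobp or Cd79a cells. It had 100, 7, 3 and 26 UMIs in members of injected 1, injected 2, uninjected 1 and uninjected 2, and 5, 0, 3 and 8 UMIs in other T cells. The log2 difference was 3.10 (SE 0.45, edgeR adjusted p = 0.021), and it passed in 1 of 4 fits that left out a library (adjusted p up to 0.168). In all cells it was -0.20 with an adjusted p of 0.874. The summed neutrophil markers were 166, 105, 491 and 38.5 CPM in members without those cells and 15.4, 136, 381 and 92.1 CPM in other T cells, and their part in the result was not tested.

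The genes lower in members, beside the interleukin 17 genes, were Igf1r, Ccdc88a, Hs3st1 and Abcb4. Igf1r, the receptor for insulin-like growth factor 1, had 333 and 87.1 CPM in members of the injected libraries and 144 and 67.3 CPM in members of the uninjected ones. The values in other T cells were 864 and 331 CPM, and 425 and 358 CPM. It was lower in members within each library, although injected 1 members overlapped other T cells of injected 2 (log2 difference -1.83, SE 0.25, edgeR adjusted p = 0.021). Ccdc88a, which links growth factor receptors to actin, differed by -2.10 (SE 0.30, adjusted p = 0.021). Hs3st1, a heparan sulfate sulfotransferase, differed by -1.80 (SE 0.30, adjusted p = 0.0478). Abcb4, a phospholipid transporter, differed by -2.61 (SE 0.37, adjusted p = 0.021) and held 11, 2, 0 and 7 UMIs in members. All 3 were lower in 4 of 4 libraries. With a library left out in turn, Igf1r and Ccdc88a passed in 2 of 4 fits (adjusted p up to 0.169 and 0.351) and Hs3st1 in 1 of 4 (up to 0.384). Abcb4 could be tested in 2 such fits and passed in 0 (up to 0.123).

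**Figure D4:**
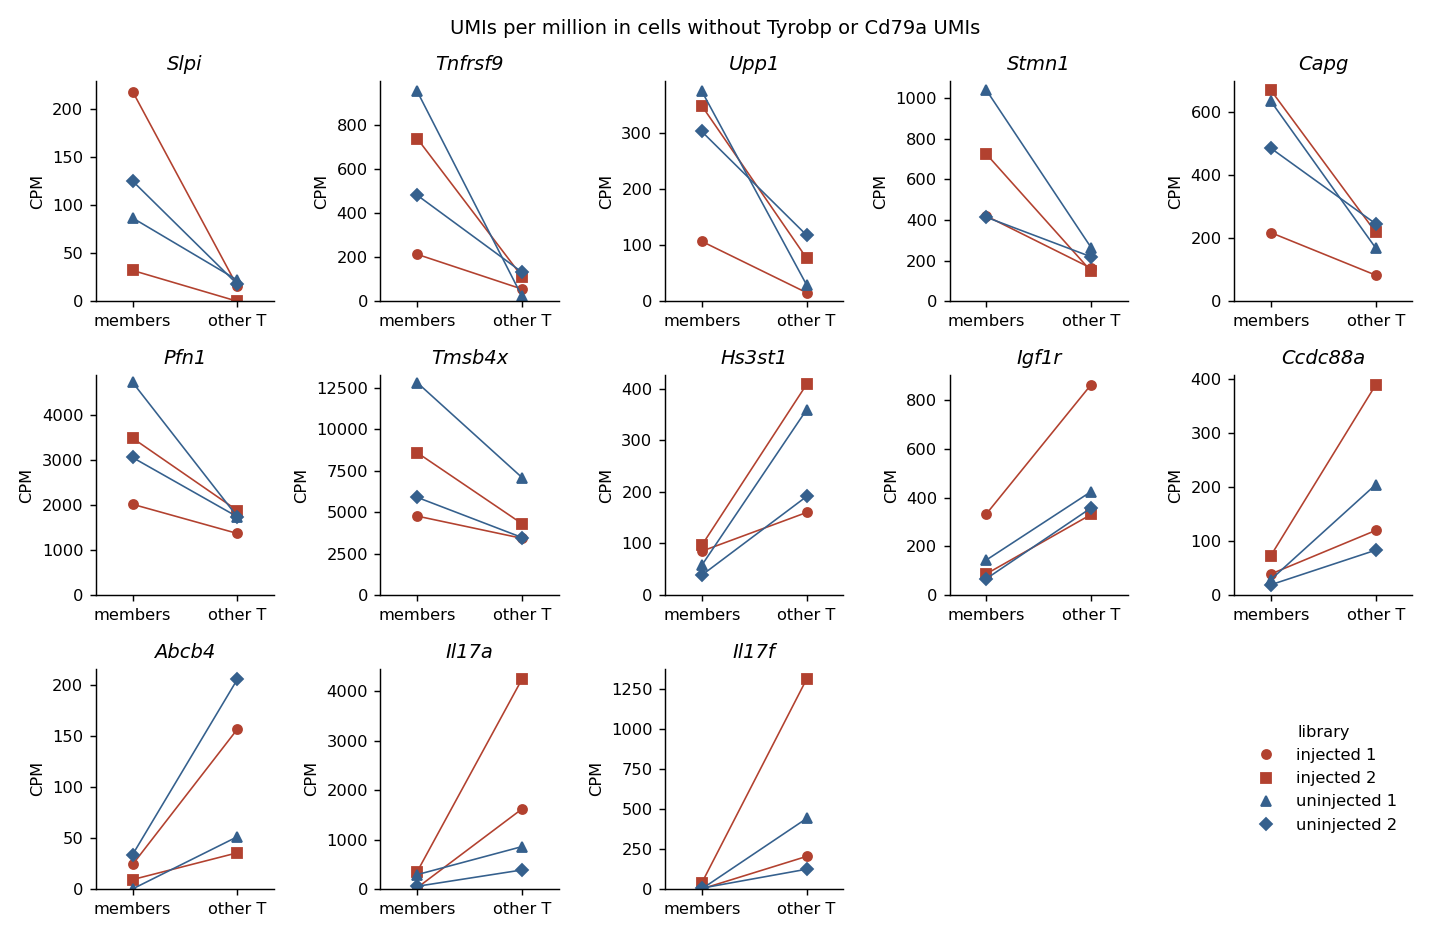
CPM of the 13 genes past the test in cells without Tyrobp or Cd79a UMIs, in members (left) and other T cells (right). Each line joins the 2 classes of 1 library (red injected, blue uninjected). The first 7 genes are higher in members in each library and the last 6 are lower.

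Unc93b1 and Pld4, both lower in members in all cells, were found mainly in the other T cells with Tyrobp or Cd79a. The 10 lower genes of smallest p were Cd24, Unc93b1, Il17f, Peli2, Ctsz, Pld4, Slamf9, Paqr5, Fnip2 and Igsf8. Unc93b1, which carries Toll-like receptors to endosomes, had 69.5 and 26.3 CPM in members of the injected libraries and 22.2 and 55.7 CPM in members of the uninjected ones. Other T cells had 772 and 149 CPM, and 336 and 382 CPM, for a log2 difference of -3.14 (SE 0.27, edgeR adjusted p = 0.00158). It was found in 106 of 124 other T cells with Tyrobp or Cd79a and 11 of 217 without, and Pld4, an endosomal nuclease, in 101 of 124 and 1 of 217. Apart from Il17f, only Fnip2 of these 10 was abundant enough to test without those cells, where the difference was -0.46 (SE 0.48, adjusted p = 0.78).

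The 10 higher genes of smallest p were Stmn1, Cd28, Rnf43, Evl, Trat1, Arhgdib, Irak3, Crip1, Zc3h12d and Lck. Trat1, an adaptor of the T cell receptor complex, had 334 and 266 CPM in members of the injected libraries and 244 and 146 CPM in members of the uninjected ones. In other T cells it had 61.9 and 77.8 CPM, and 39.2 and 62.9 CPM. Its log2 difference was 1.88 (SE 0.27, edgeR adjusted p = 0.00474), and 1.40 (SE 0.26, adjusted p = 0.0828) without Tyrobp or Cd79a cells. Lck, the kinase that starts T cell receptor signalling, differed by 1.19 (SE 0.19, adjusted p = 0.00773), and by 0.55 (adjusted p = 0.427) without those cells. Of the 9 tested T cell markers outside the rule, 9 were higher in all cells, 3 of them past the test, with a median of 0.73. Without Tyrobp or Cd79a cells 6 of 9 were higher, 0 passed, and the median was 0.30. The 4 tested regulatory markers outside the rule were all higher in all cells. Of them 3 passed, beside 1.77% of all genes called higher, and the median was 1.09. Without those cells 3 of 4 were higher, 0 passed, and the median was 0.42. Il2ra was then found in 64.0% of members and 55.3% of other T cells. These members were deeper, at a median of 5250.5 UMIs against 4055 in these other T cells. With each cell thinned to the same depth, Il2ra was found in 37.5% of these members and 35.5% of these other T cells. Before thinning, its level over the 4 libraries together was 968 CPM in these members and 923 CPM in these other T cells.

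Among receptors for cytokines, 12 of 17 tested genes were higher in all cells and 5 lower. The test called 2 of them higher and 2 lower, beside 1.77% and 5.86% of all genes. Stat5b, which carries the interleukin 2 signal, was higher by 1.02 (SE 0.21, edgeR adjusted p = 0.0199), and Il2rg, the shared interleukin 2 receptor chain, by 0.90 (SE 0.23, adjusted p = 0.0459). Tgfbr2, a TGF-beta receptor chain, was lower, at 177 and 174 CPM in members of the injected libraries and 22.2 and 223 CPM in members of the uninjected ones. Other T cells had 788 and 322 CPM, and 205 and 718 CPM (log2 difference -1.75, SE 0.29, adjusted p = 0.00773). Socs1, an inhibitor of cytokine signalling, was also lower, with a difference of -1.37 (SE 0.31, adjusted p = 0.0257). None of the 4 passed without Tyrobp or Cd79a cells, where Tgfbr2 came nearest with -1.36 (SE 0.26, adjusted p = 0.0828). In that setting 8 of the 17 genes were higher and 9 lower, with a median log2 difference of -0.01.

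Of 11 tested genes for suppression and inhibitory receptors, 9 were higher in all cells. The test called only Itgb8 higher and Havcr2 lower, beside 1.77% and 5.86% of all genes. Itgb8 had 22, 19, 0 and 28 UMIs in members and 8, 0, 1 and 3 in other T cells of injected 1, injected 2, uninjected 1 and uninjected 2 (log2 difference 3.38, SE 0.73, edgeR adjusted p = 0.0226). Without Tyrobp or Cd79a cells it was 2.59 (adjusted p = 0.304), and 6 of 10 tested genes of the list were higher, with 0 past the test. Il10, a suppressive cytokine, was found in 8 members and 7 other T cells and was too sparse to test. Of 12 tested genes linked to tissue and repair regulatory T cells, 8 were higher in all cells. Of the 12, 2 passed the test, beside 7.63% of all genes. Batf, a transcription factor of effector regulatory T cells, was higher (1.40, SE 0.35, adjusted p = 0.0384). Furin, a protease that matures TGF-beta, was lower (-1.21, SE 0.22, adjusted p = 0.0112). Neither passed without those cells, where 4 of the 12 genes were higher and 8 lower, with a median log2 difference of -0.20.

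Among homing genes, 10 of 14 tested were higher in all cells and 4 lower. The test called 4 of them higher and 1 lower, beside 1.77% and 5.86% of all genes. Cxcr3, a chemokine receptor of interferon-driven T cells, had 122 and 98.5 CPM in members of the injected libraries and 88.8 and 85.6 CPM in members of the uninjected ones. Other T cells had 51.6 and 24.8 CPM, and 8.71 and 33.3 CPM (log2 difference 1.57, SE 0.33, edgeR adjusted p = 0.0214). The integrin chains Itgb7 and Itgb1 were also higher, by 1.49 and 0.98, and Itgb2 was lower, with a difference of -1.40. Without Tyrobp or Cd79a cells 9 of 14 homing genes were higher and 0 passed. Cxcr3 was then higher by 1.24 (edgeR adjusted p = 0.304), Itgb7 by 1.23 (0.225) and Itgb1 by 0.59 (0.548), and Itgb2 changed sign, to 0.43. The MHC class I list had 10 of 11 tested genes higher in all cells, with 4 called higher beside 1.77% of all genes. Without Tyrobp or Cd79a cells 5 of 11 were higher and none passed. B2m, the shared class I chain, differed by 0.47 in all cells and by -0.14 without them.

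In all cells, the calls of the remaining lists stand beside 1.77% of all genes called higher and 5.86% called lower. Of 21 tested genes of T cell receptor signalling, Lck, Cblb and Lcp2 were higher and Rel, an NF-kB subunit, was lower. In that list 14 of 21 genes were higher, with a median of 0.27. Without Tyrobp or Cd79a cells only 6 of 21 were higher, with a median of -0.34. Of 11 tested interferon response genes, Gbp5 and Gbp2, guanylate-binding proteins induced by interferon gamma, were higher and the transcription factor Irf1 was lower. Nkg7 was higher among 8 tested cytotoxicity genes (log2 difference 1.29, SE 0.30, edgeR adjusted p = 0.032), and Ahr, a transcription factor that responds to aromatic ligands, was lower among 13 tested helper lineage factors (-1.28, SE 0.29, adjusted p = 0.0269). At 1 of 8 and 1 of 13, these shares are read against the 7.63% of all genes called. The second is about equal to it and says nothing particular about that list. Slc2a1, a glucose transporter, and Egln3, an oxygen sensor, were lower among 14 tested glycolysis and hypoxia genes, and Egln3 changed sign, to 1.05, without Tyrobp or Cd79a cells. None of these 11 genes passed without those cells. In the 3 other lists edgeR called no gene in all cells: 7 of 9 naive and central memory genes, 4 of 16 immediate early and heat shock genes and 7 of 12 apoptosis and survival genes were higher, with medians of 0.20, -0.20 and 0.04. Without Tyrobp or Cd79a cells these counts were 4 of 10, 2 of 16 and 4 of 11, with medians of -0.15, -0.46 and -0.14.

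**Figure D5:**
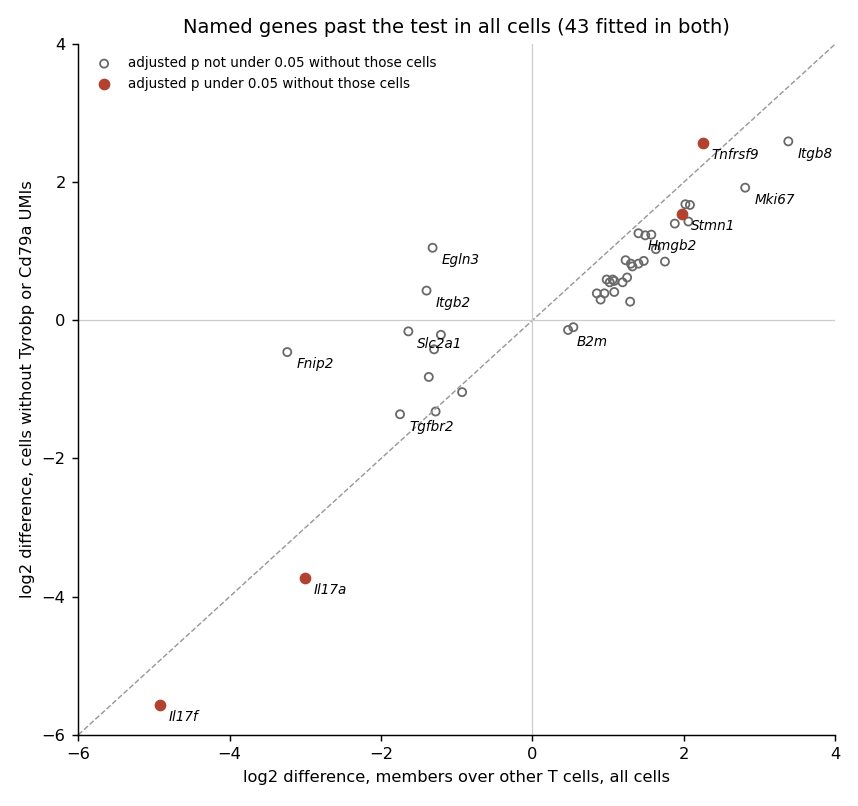
Log2 difference of members over other T cells for 43 named genes past the test in all cells (horizontal) and in cells without Tyrobp or Cd79a UMIs (vertical). The dashed line marks equal values. Without those cells 38 of the 43 genes had a smaller difference, 39 kept their sign, and 4 (filled: Il17a, Il17f, Tnfrsf9 and Stmn1) passed the test.

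Injected and uninjected members were then compared gene by gene. Uninjected 1 fell short of the 10 members per library set as a minimum for a test, so the values below are descriptions, and the test was run as an addition. No gene passed: edgeR called 0 of 4845 genes (0.0%), with 223 at an unadjusted p under 0.05, and DESeq2 called 3, which were Mmp12, Cxcl1 and Cxcl2, the last of them named after the values were seen. The regulatory genes, which the rule used, overlapped between the groups. Foxp3 had 54.5 and 171 CPM in members of the injected libraries and 0 and 120 CPM in members of the uninjected ones. Ikzf2 had 753 and 407 CPM against 555 and 343 CPM, and Ctla4 had 479 and 463 CPM against 444 and 527 CPM.

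No process list held a gene past the test. Of the 11 costimulation genes tested, 7 were higher in injected members and the median log2 difference was 0.02, beside 0.01 for all genes. Icos had 1510 and 2800 CPM in injected members and 1180 and 1400 CPM in uninjected members. Interferon response genes were higher in 6 of 9 with a median of 0.57, and MHC class I genes in 10 of 11 with a median of 0.42. Immediate early and heat shock genes were lower in 13 of 16, with a median of -0.34. The high ribosomal share of uninjected 1 falls on 1 side of this comparison, and its part was not tested.

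The 10 genes of smallest p were Mmp12, Il1b, Sprr1a, Ppp1r14b, Lamb3, Ube2m, Kif13a, Baiap2l1, Cxcl1 and Gjb2, and none passed the test. Il1b, an inflammatory cytokine, had 74 and 59 UMIs in injected members and 1 and 3 in uninjected members (139 and 194 CPM, against 22.2 and 12.8 CPM). Cxcl1, a neutrophil attractant, had 658 and 955 CPM in injected members and 200 and 85.6 CPM in uninjected members. Mmp12, a macrophage metalloprotease, had 1 and 0 UMIs in injected members and 13 and 36 in uninjected members. Lamb3, a laminin chain of keratinocytes, had 28.2 and 19.7 CPM in injected members and 88.8 and 137 CPM in uninjected members. The edgeR adjusted p was 0.122 for Mmp12 and 0.719 or more for the others. Summed keratinocyte markers were 1950 and 1480 CPM in injected members and 1780 and 4270 CPM in uninjected members, with Krt1 at 0. Summed macrophage markers were 2200 and 2100 CPM, against 666 and 1160 CPM, with Csf1r, Adgre1, C1qb and C1qc at 0. Their part in these differences was not tested.

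Whether the effect of injection differed between members and other T cells was tested by the interaction of class and group. The edgeR test called 0 of 5926 genes (0.0%), with 162 at an unadjusted p under 0.05. It also rests on the 8 members of uninjected 1, fewer than the 10 set for the comparison above. Without Tyrobp or Cd79a cells 20 genes passed, all with a higher injected over uninjected difference in members, and leaving out injected 1 or injected 2 gave 53 and 46. Tnfaip6, Tfpi2 and Il33 were among the 10 genes of smallest p in all cells. Tnfaip6, a matrix protein of inflamed tissue, had 387, 8, 0 and 4 UMIs in members of injected 1, injected 2, uninjected 1 and uninjected 2, and 31, 7, 1 and 651 in other T cells. Tfpi2, a protease inhibitor, had 143, 4, 0 and 0 in members and 8, 2, 0 and 123 in other T cells. Il33, an alarmin of stromal and epithelial cells, had 80, 0, 0 and 1 in members and 4, 2, 0 and 193 in other T cells. The high values of these 3 genes stood in members of injected 1 and in other T cells of uninjected 2. Not all of the 10 did so: in the same library order, members held 20, 173, 0 and 4 UMIs of Pappa1 and 1, 0, 13 and 36 of Mmp12. The summed fibroblast markers were highest in the same places as the 3 genes. They were at 868 CPM in members of injected 1 and 1120 CPM in other T cells of uninjected 2, against 22.2 to 187 CPM elsewhere. Their part was not tested.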

How the data were processed

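The deposited files hold whole-number UMI counts per gene and barcode for all droplets, 23999 genes in each of 4 libraries. The authors made these counts with Cell Ranger, version 7.2.0 per the file headers and 5.0.1 per the submitters' processing notes. The genome build is not given in the sources used here. Members and gene lists were chosen with earlier results of these data known, and Tyrobp and Cd79a after their values were seen.

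Counts were summed per library and class. Tests used edgeR 4.0.16 (quasi-likelihood, TMM, filterByExpr, Benjamini-Hochberg at 0.05) in R 4.3.3, with DESeq2 1.42.0 as an alternative. In counts simulated with gene-wise spread, the share of false calls exceeded the nominal one, and with spread set by the trend it did not. CPM is UMIs of a gene per 1000000 summed UMIs. Doublets were left in and removed as an alternative, as the barcodes Scrublet (scanpy 1.11.5) scored highest at 0.8% per 1000 barcodes, 13 members among them. Named genes were, per comparison, up to 10 of smallest p in each direction past the threshold, else the 10 of smallest p, and per list up to 4 that passed, else the 2 of highest mean. Shares had Wilson 95% intervals (scipy 1.17.1). Keratinocyte barcodes held at least 0.5% Krt5 and Krt14 and no Cd3 UMI.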

Additional observations from a re-analysis of the deposited data

How the results depend on the processing

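The number of genes called between members and other T cells (452) became 812 with no filter on low counts, 751 without barcodes marked as doublets, 141 with cells thinned to 1000 UMIs, 145 with no replicate block and 13 without Tyrobp or Cd79a cells, and it ranged from 94 to 525 with each library left out. It was 459 with RLE size factors, 642 with DESeq2 and 451 with Foxp3 members against T cells with 0 regulatory UMIs. The 13 genes became 0 with no replicate block (295 at an unadjusted p under 0.05) and 101 with no filter, and ranged from 1 (Il17f, without injected 2 and without uninjected 1) to 20 with a library left out. Between injected and uninjected members, 0 genes became 46 with no filter, 39 in members with Foxp3, where uninjected 1 gave no cell, and 3 with DESeq2, and ranged from 0 to 111 with a library left out. With the replicate number as a block it stayed 0 (114 unadjusted). Deviations of same-numbered libraries had a correlation of -0.07 over 4845 genes. With so few libraries per group, and few members in uninjected 1, this cannot show whether the numbers pair the samples. The interaction count of 0 became 59 with no filter, 49 with Foxp3 members, 20 without Tyrobp or Cd79a cells, and ranged from 0 to 53 with a library left out. A fit that leaves 1 library in a group assumes that it varies like the others.

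The difference in share of T cells (20.8 percentage points) became 11.4 after thinning and 7.73 for T cells with a Foxp3 UMI, and ranged from 14.3 to 27.3 with a library left out. That of filtered barcodes (0.389 points) became 0.0682 and 0.11, and ranged from 0.228 to 0.549. The injected libraries stayed above the uninjected ones in each of these settings but one: with a Foxp3 UMI, 7.35% and 16.5% of T cells in the injected libraries overlapped 0 and 8.39% in the uninjected ones.

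Of 58 named genes in the comparison of classes, 52 passed and all 52 kept their direction with each library left out, 19 of them staying past the threshold. Without Tyrobp or Cd79a cells Itgb2 turned to 0.43, Egln3 to 1.05, B2m to -0.14 and RT1-A1 to -0.10. The other sign changes were in genes that did not pass: Foxp1 turned to -0.05 with no filter, -0.03 with DESeq2, and ranged from -0.19 to 0.18 with a library left out (-0.07 without injected 2). Jund turned to -0.05 with no filter, -0.02 without doublets, -0.21 without Tyrobp or Cd79a cells, -0.24 with Foxp3 members, -0.19 after thinning, -0.04 with DESeq2, and ranged from -0.07 to 0.13 with a library left out (-0.06 without injected 2). Junb ranged from -0.30 to 0.21 (0.04 without uninjected 2). The cause of these changes was not tested. With 152 members, 8 of them in uninjected 1, sparse genes such as Foxp3 and Cd4 are limited by depth.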

Other observations

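Barcodes outside the T cell gate also held regulatory genes. Among barcodes that passed the exclusion steps, 264 held at least 2 UMIs of Foxp3, Ikzf2 and Ctla4 but no Cd3 UMI. Of these, 147 had Ctla4, 149 had Ikzf2, 115 had Icos, 104 had Cd2 and 77 had Gata3, and 5 had Foxp3. They numbered 120 and 54 in the injected libraries and 18 and 72 in the uninjected ones. A further 22 barcodes had 1 Cd3 UMI, 4 of them with Foxp3.

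Foxp3 UMIs were found in 26 and 23 filtered barcodes of the injected libraries and 7 and 28 of the uninjected ones. Members were 11 and 13 of these in the injected libraries and 0 and 11 in the uninjected ones. All 7 in uninjected 1 lay outside the T cell gate, 4 of them in barcodes that an exclusion step removed and 3 in barcodes with fewer than 2 Cd3 UMIs.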
